A study of Mus musculus with 6 samples.

Results

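Ephrins and Eph receptors pass signals between cells that touch each other, and 7 genes of this family (Efna1, Efnb1, Efnb2, Ephb4, Epha2, Epha4 and Ephb2) were followed here in liver non-parenchymal cells (LNPC). They were taken by symbol, with earlier results of these data known, from the 19,349 genes in the count tables, and all 7 were present. The LNPC came from male C57BL/6J mice that were 8 weeks old at the start, were fed a high-fat diet (HFD) for 24 weeks as a model of nonalcoholic steatohepatitis (NASH), and received by gavage during the last 8 weeks either vehicle (DMSO) or ginkgetin, a biflavone from plants (daily dose 10 mg/kg). Single-cell RNA-Seq was performed by the 10X Genomics Chromium system with 3 libraries of vehicle-treated mice and 3 of ginkgetin-treated mice, and there was no library from mice on a chow diet. The question asked of these genes was where along the sinusoid and in which cells they were present, and whether this differed after ginkgetin treatment.

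Ephrins are ligands anchored in the membrane, and Eph receptors are tyrosine kinases on the neighbouring cell. Binding sends a signal into the receptor cell and, for ephrin-B ligands, also back into the ligand cell. In blood vessels, ephrin-B2 (Efnb2) is known as a mark of arterial endothelium and its receptor EphB4 (Ephb4) as a mark of venous endothelium, and in the liver the blood of a sinusoid runs from the portal tract to the central vein.

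The tables held 33168 barcodes and 13,128,697 to 61,796,882 unique molecular identifiers (UMIs) per library, and 27544 cells passed the filter on genes and mitochondrial UMIs. Clusters were named from marker lists as 12 classes ("-like"), and 1945 cells, 7.70% of the vehicle cells and 6.45% of the ginkgetin cells, stayed unnamed. Endothelial-like cells numbered 7965 and made up 16.3% of the vehicle cells and 41.1% of the ginkgetin cells. They were split by their marker UMIs into 6273 sinusoidal-like, 989 pericentral-like and 702 vascular-like cells. Levels are given in CPM, which is UMIs scaled to the same total in every library and class. Because the split used these markers, their levels only describe it: Vwf, a marker of larger vessels, stood at 411 to 887 CPM in vascular-like and 10.3 to 62.1 CPM in sinusoidal-like cells, Stab2, a scavenger receptor of the sinusoid, at 20.7 to 150.0 and 537 to 1052 CPM, and Wnt2, a ligand made around the central vein, at 382 to 987 CPM in pericentral-like and 42.5 to 197 CPM in sinusoidal-like cells. Replicate 3 of both groups came with another set of barcodes and gene symbols and was deeper, with medians of 7614 and 7628.5 UMIs per endothelial-like cell against 2272 to 2840 in replicates 1 and 2. In sinusoidal-like cells, Efnb1, Efnb2, Efna1 and Ephb4 were also highest in replicate 3 of both groups, and the part of depth in this was not tested. Values within each set are therefore given beside the pooled ones.

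The ligands were transcripts of endothelial-like cells. Of all UMIs of the gene in kept cells, 92.4% for Efnb1, 94.6% for Efnb2 and 88.9% for Efna1 lay in this class. By library these shares ran from 78.6 to 95.3%, 86.9 to 96.3% and 72.5 to 94.8%. The class made up 9.81 to 48.6% of the kept cells of a library. The levels below are sums of UMIs per library and class, as CPM, and are a description without a test, since the classes were made from these cells.

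Efnb1 (chrX:99136130-99148991, plus strand, GRCm38, GENCODE vM21) encodes ephrin-B1, and the study itself used high Efnb1 to name periportal endothelial cells. In vascular-like cells it stood at 500.2, 635 and 1034 CPM in vehicle replicates 1 to 3 and at 878, 1103 and 1829 CPM in ginkgetin replicates 1 to 3. In sinusoidal-like cells the values were 202, 193 and 538 CPM with vehicle and 228, 353 and 601 CPM with ginkgetin. Each of the 6 libraries was thus higher in vascular-like than in sinusoidal-like cells, with means of 996 ± 468 and 352 ± 179 CPM (SD, n = 6). In pericentral-like cells Efnb1 was at 245, 212 and 551 CPM with vehicle and 127, 213 and 241 CPM with ginkgetin. This was above the sinusoidal-like value in all 3 vehicle libraries and below it in all 3 ginkgetin libraries, a turn seen for 3.73% of the genes tested in both sub-classes and not tested itself. With a gate that left out Thbd and Cdh13, which are also read in larger vessels, it was below in all 6. Stellate-like cells, the vitamin A-storing pericytes of the sinusoid, came next at 77.7 ± 37.9 CPM (SD, n = 5), and their range did not overlap that of pericentral-like cells. Cholangiocyte-like cells of the bile duct were at 35.5 ± 12.3 CPM (SD, n = 6).

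Efnb2 (chr8:8617434-8661242, minus strand) encodes ephrin-B2. Its vascular-like values were 145, 149.8 and 366 CPM with vehicle and 174, 191 and 247 CPM with ginkgetin. Its sinusoidal-like values were 113, 145 and 295 CPM with vehicle and 124, 117 and 181 CPM with ginkgetin. Its pericentral-like values were 74.8, 63.1 and 151 CPM with vehicle and 43.9, 57.5 and 38.7 CPM with ginkgetin. All 6 libraries kept the order vascular-like (212 ± 84.0), sinusoidal-like (162 ± 69.5) and pericentral-like (71.6 ± 41.2 CPM; SD, n = 6), although the ranges over libraries overlapped. Below these, cholangiocyte-like cells had a mean of 13.8 CPM, with no overlap with pericentral-like cells.

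Efna1 (chr3:89271733-89281142, minus strand) encodes ephrin-A1, a lipid-anchored ligand of EphA receptors. It stood at 212, 196 and 252 CPM in vascular-like cells of the vehicle libraries and 83.6, 123 and 275 CPM in those of the ginkgetin libraries. In sinusoidal-like cells it was at 115, 103 and 216 CPM with vehicle and 77.6, 95.5 and 168 CPM with ginkgetin, and in pericentral-like cells at 90.4, 54.1 and 139 CPM and 39.5, 56.4 and 86.2 CPM. The order vascular-like, sinusoidal-like, pericentral-like held in all 6 libraries, as for Efnb2. Unlike the ephrin-B ligands, Efna1 in cholangiocyte-like cells (46.3 ± 5.59 CPM; SD, n = 6) was near its pericentral-like level (77.6 ± 36.0 CPM), which was the higher in 5 of 6 libraries. In hepatocyte-like cells Efna1 was at 9.66 to 21.4 CPM in 4 libraries, and the 148 CPM of ginkgetin replicate 2 rested on 6 UMIs in 12 cells.

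Among the receptors, Ephb4 (chr5:137350109-137378669, plus strand), which encodes the EphB4 receptor of ephrin-B2, was also endothelial, with 92.7% of its UMIs in this class, but its order over the sub-classes was turned. In pericentral-like cells it stood at 199.5, 284 and 254 CPM with vehicle and 277, 278 and 520.1 CPM with ginkgetin. In sinusoidal-like cells it was at 146, 145 and 199.7 CPM with vehicle and 186, 221 and 324 CPM with ginkgetin, below the pericentral-like value in all 6 libraries. Vascular-like cells, at 162, 165 and 252 CPM and 118, 170.2 and 271 CPM, were above sinusoidal-like cells in all 3 vehicle libraries and below them in all 3 ginkgetin libraries, as was so, in either direction, for 3.31% of genes, and this was not tested. The means were 302 ± 111, 204 ± 66.2 and 189.8 ± 58.9 CPM (SD, n = 6), all above stellate-like (49.8 CPM) and cholangiocyte-like cells (30.9 CPM).

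Epha2 (chr4:141301240-141329384, plus strand), a receptor of ephrin-A1, was spread over several classes. Over all libraries, endothelial-like cells held 58.6% of its UMIs. By library they held 43.3, 32.5 and 39.9% with vehicle and 71.5, 68.9 and 70.4% with ginkgetin, where the class was larger. Its highest mean was in plasmacytoid dendritic-like cells, the interferon-producing cells of the dendritic lineage, at 63.9, 37.5 and 89.8 CPM with vehicle and 69.8, 53.7 and 174 CPM with ginkgetin. There it exceeded the pericentral-like value (33.3 ± 7.23 CPM; SD, n = 6) in 6 of 6 libraries. Sinusoidal-like (28.1 ± 7.22), stellate-like (26.8 ± 17.5), vascular-like (25.9 ± 9.94) and cholangiocyte-like cells (20.0 ± 5.39 CPM) did not differ beyond their spread. Epha4 (chr1:77367185-77515088, minus strand), which binds ephrins of both kinds, was found in stellate-like cells (24.6 ± 10.6 CPM; SD, n = 5) and vascular-like cells (22.6 ± 16.8 CPM; SD, n = 6) and had 57.3% of its UMIs in endothelial-like cells, while in sinusoidal-like cells it reached at most 4.08 CPM and in monocyte-like cells, with 40 UMIs in all, lay between 0 and 12.4 CPM. By library the endothelial-like share of Epha4 ran from 11.1 to 80.0%, on 5 to 95 UMIs each. Ephb2 (chr4:136647539-136835988, minus strand), a receptor of ephrin-B ligands, had 72 UMIs in all, of which 1 (1.39%) was in an endothelial-like cell. Of these, 32 were in plasmacytoid dendritic-like cells (12 CPM) and 21 in stellate-like cells (17.4 CPM), and the ranges of these classes overlapped.

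**Figure D1:**
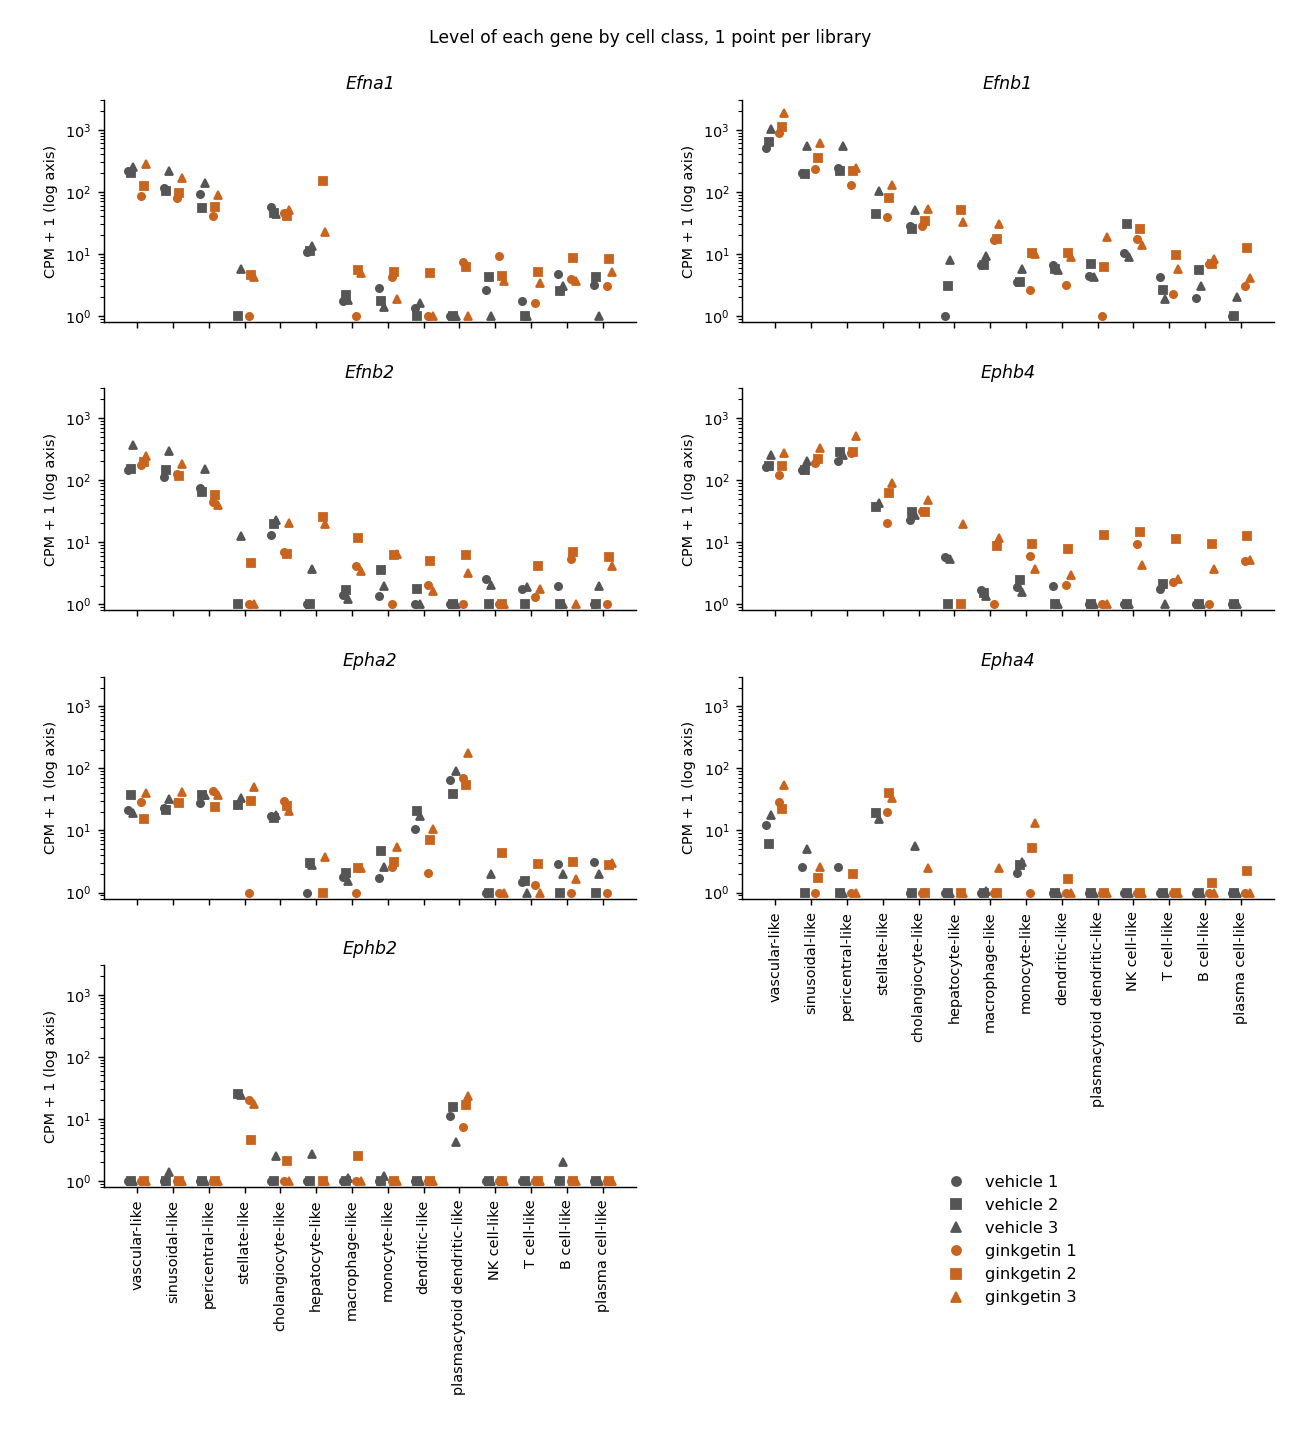
Level of the 7 genes in 14 cell classes, with 1 point per library; the vertical axis is CPM + 1 on a log axis, vehicle is grey and ginkgetin orange, and the marker shape gives the replicate. Efna1, Efnb1, Efnb2 and Ephb4 are highest in the 3 endothelial sub-classes at the left, Epha2 is highest in plasmacytoid dendritic-like cells, and Ephb2 is at or near 0 outside stellate-like and plasmacytoid dendritic-like cells.

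The same picture was seen per cell at 1 depth. After each cell was thinned to 1000 UMIs, a UMI of Efnb1 was found in 25.9 ± 8.42% of endothelial-like cells (SD over 6 libraries) against 0.313% of T cell-like cells, a class of low level that served as reference although T cells are known to make some ephrin-B1 (50.4% of endothelial-like cells before thinning; median depths 2710 and 3117 UMIs). The shares were 19.9% against 0.355% for Ephb4, 14.0% against 0.105% for Efnb2, 12% against 0.113% for Efna1 and 2.61% against 0.0172% for Epha2, and before thinning 52.1%, 38.0%, 37.8% and 11.9% of endothelial-like cells had a UMI of these genes. The 12 endothelial-like cells under 1000 UMIs were left out. Among vascular-like cells 57.1% had a UMI of Efnb1, and among plasmacytoid dendritic-like cells 8.63% had one of Epha2.

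Over the means of the 14 classes, the 3 ligands and Ephb4 resembled each other (Pearson r of log2(CPM + 1), a description over classes that share libraries and depth). Efnb1 and Ephb4 had r = 0.956, Efna1 and Efnb2 r = 0.944, and Efnb1 and Efnb2 r = 0.914, and the lowest of their 6 pairs was Efna1 and Ephb4 (0.836). Epha2 had r = 0.439 to 0.627 with these 4 genes, Epha4 0.289 to 0.600 and Ephb2 −0.267 to −0.00181. Among 12063 other genes, the nearest to Efnb1 were Cdkn1c (r = 0.98), Mcam (0.97) and Asah2 (0.97), those nearest to Efnb2 were Ntn4, a periportal landmark (0.98), Afap1l1 (0.98) and Podxl (0.98), and those nearest to Efna1 were Cd59a (0.97), Car8 (0.96) and Podxl (0.96). Ephb4 was nearest to Amotl1, Fzd4 and Timp3 (0.99 each) and Epha2 to Arhgef10 (0.92), Mier3 (0.92) and Fam110a (0.90). Epha4 was nearest to Fxyd6 (0.94), Lox (0.94) and Fbln5 (0.93) and Ephb2 to Cacnb2 (0.95), Notch3 (0.95) and Matn2 (0.91).

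Next, the position along the sinusoid was addressed. The 7262 sinusoidal-like and pericentral-like cells were ordered within each library by 10 pericentral and 8 periportal landmark genes, none of them an ephrin or Eph receptor, and cut into 3 layers of equal size. The ephrin ligands fell from the periportal-most to the pericentral-most layer and Ephb4 rose. By edgeR's quasi-likelihood test with the library as a covariate, 4 of the 5 genes that passed the filter on low counts differed between these layers, where 14% of the 8867 genes tested did (7.25% higher and 6.71% lower toward the central vein). Epha4 and Ephb2 were under the filter.

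Efnb1 in the periportal-most, middle and pericentral-most layers stood at 331, 195 and 114 CPM in vehicle replicate 1, at 308, 193 and 93.4 CPM in replicate 2 and at 932, 467 and 257 CPM in replicate 3. In the ginkgetin libraries it was at 394, 173 and 83.3 CPM, at 581, 313 and 132 CPM, and at 1071, 447 and 169 CPM. It fell at each step in all 6 libraries, by 2.89- to 6.32-fold from end to end. The fitted log2 difference was −2.10 (SE 0.093, adjusted p = 1.88e-18).

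Efnb2 was at 154, 109.7 and 54.9 CPM, 185, 146 and 63.8 CPM, and 475, 266 and 137 CPM in the layers of the vehicle libraries, and at 203, 101 and 39.1 CPM, 177, 103 and 52.5 CPM, and 290.4, 162 and 41.7 CPM in those of the ginkgetin libraries. All 6 libraries fell, with a log2 difference of −2.01 (SE 0.11, adjusted p = 5.85e-16). Efna1 was at 150.1, 112 and 71.4 CPM, 147, 96.5 and 43.3 CPM, and 299.5, 209 and 135 CPM with vehicle and at 103, 76.8 and 38.1 CPM, 117, 99.9 and 58.2 CPM, and 224, 156 and 94.5 CPM with ginkgetin. It also fell in all 6 libraries, by 2.0- to 3.39-fold from end to end, with a log2 difference of −1.18 (SE 0.078, adjusted p = 4.34e-14).

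Ephb4 went the other way. Its layer values were 149, 151 and 170.2 CPM, 142, 146 and 216 CPM, and 191, 191 and 225 CPM with vehicle and 154, 194 and 249 CPM, 202, 228 and 251 CPM, and 294, 325 and 429 CPM with ginkgetin. The pericentral-most layer was the highest in all 6 libraries, and the rise was smaller than the falls of the ligands (log2 difference 0.43, SE 0.065, adjusted p = 4.03e-06). Epha2 lay between 15.7 and 43.4 CPM in every layer and library with no order that the libraries shared (log2 difference −0.09, SE 0.13, adjusted p = 0.765).

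**Figure D2:**
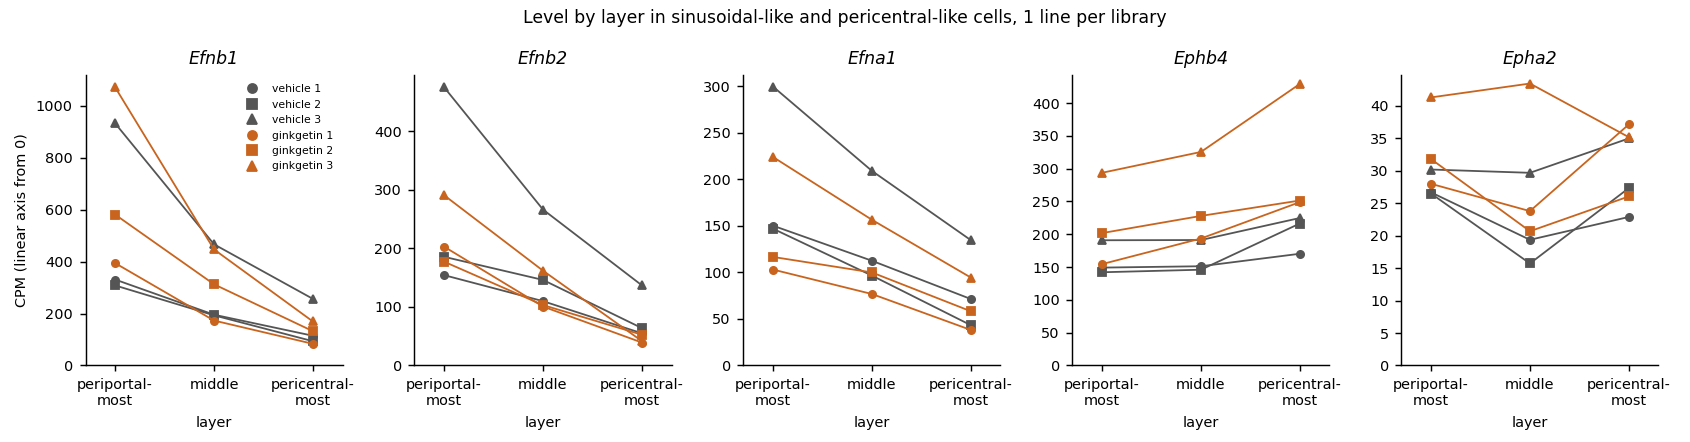
Level of 5 genes (CPM, linear axis from 0, with its own scale for each gene) in the periportal-most, middle and pericentral-most layer of sinusoidal-like and pericentral-like cells, with 1 line per library, vehicle grey and ginkgetin orange. The lines of Efnb1, Efnb2 and Efna1 fall in all 6 libraries, those of Ephb4 end highest in the pericentral-most layer, and those of Epha2 cross.

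Set among all genes, Efnb1 and Efnb2 stood near the periportal end. Of the 3308 genes with a mean of at least 50 CPM in these layers, landmarks left out, Efnb1 had the 5th and Efnb2 the 6th lowest log2 difference, Efna1 the 18th and Ephb4 the 3145th. The other genes with the largest called falls toward the central vein were Slc45a4 (−4.58), Mecom (−2.77) and Igfbp5 (−2.61), and those with the largest rises were Jup (2.72), Lgals1 (2.57) and Ltc4s (2.50). Within replicates 1 and 2 alone, the log2 differences were −1.97 for Efnb1, −1.79 for Efnb2, −1.18 for Efna1 and 0.41 for Ephb4, all called.

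Vascular-like cells had been gated out of these layers, which limits the vascular marker sums, so these sums only describe the layers. The 12 vascular markers summed to 408 to 760 CPM in the periportal-most and 538 to 912 CPM in the pericentral-most layers, with 1 to 3 of them at 0 in each of these. Median UMIs per cell were 2115.5 to 7107 and 2428 to 8244. In the 1950 cells without a vascular marker UMI, the log2 differences were −1.94 for Efnb1, −1.55 for Efnb2 and −0.97 for Efna1, all called, and 0.37 for Ephb4, which was no longer called (adjusted p = 0.0959). The size of the differences depended on the landmarks: with the pericentral landmarks alone, they were −0.98 for Efnb1, −1.23 for Efnb2, −0.85 for Efna1 and 0.56 for Ephb4, all called.

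The promoters of the ephrin-B ligands and of Ephb4, the genes at the opposite ends of this order, are shown as the 250 bases before the gene start in RefSeq (GRCm38.p6), each read 5′ to 3′ on the strand of the gene, at chrX:99135811-99136060 (plus) for Efnb1, chr8:8661243-8661492 (minus) for Efnb2 and chr5:137349859-137350108 (plus) for Ephb4. Capitals mark TGGGAA, the core letters read by the Notch partner RBPJ.
Efnb1: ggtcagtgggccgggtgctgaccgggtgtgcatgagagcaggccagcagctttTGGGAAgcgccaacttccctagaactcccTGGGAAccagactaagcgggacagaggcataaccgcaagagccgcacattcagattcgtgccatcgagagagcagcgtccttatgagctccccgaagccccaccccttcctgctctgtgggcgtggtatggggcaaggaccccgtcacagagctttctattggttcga
Efnb2: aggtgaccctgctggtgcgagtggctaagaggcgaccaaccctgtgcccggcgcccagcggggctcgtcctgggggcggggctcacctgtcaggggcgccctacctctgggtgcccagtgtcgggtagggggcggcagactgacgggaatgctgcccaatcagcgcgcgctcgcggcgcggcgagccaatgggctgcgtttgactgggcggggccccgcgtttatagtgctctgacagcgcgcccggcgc
Ephb4: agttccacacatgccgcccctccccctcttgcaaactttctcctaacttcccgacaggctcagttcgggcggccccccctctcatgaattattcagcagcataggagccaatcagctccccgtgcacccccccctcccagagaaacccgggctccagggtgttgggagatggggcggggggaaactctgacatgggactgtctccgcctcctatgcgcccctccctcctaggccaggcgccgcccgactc
TGGGAA was searched on both strands, as was CTTTGA, the core of the motif of the TCF/LEF factors of Wnt signalling, and matches of the 2 motifs share no letters here. Efnb1 held TGGGAA at 2 places, 197 and 168 bases before the start, and Epha4 at 1, while Epha2 held CTTTGA at 1. Of 32851 promoters of this length, 21.6% held the first motif and 13.8% the second. The windows of Efnb2, Ephb4, Efna1 and Ephb2 held neither, which says only that these letters are not in them.

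The zonal difference was then compared between vehicle and ginkgetin. It was larger in ginkgetin-treated mice for Efnb1 and Efnb2, which were 2 of the 5 genes tested, where 1.57% of 9105 genes were called (1.15% lower and 0.417% higher). The log2 ratio of the pericentral-most over the periportal-most layer averaged −1.71 ± 0.17 with vehicle and −2.35 ± 0.28 with ginkgetin for Efnb1 (SD, n = 3 each), and the groups did not overlap, as was so for 15% of genes. The difference of these differences, in a fit with an interaction of layer and group, was −0.72 (SE 0.14, adjusted p = 0.000988). For Efnb2 the ratios were −1.61 ± 0.16 and −2.31 ± 0.53, which overlapped, with a difference of −0.68 (SE 0.19, adjusted p = 0.0478). For Efna1 (−1.33 ± 0.38 against −1.23 ± 0.22; difference −0.03, adjusted p = 0.98), Ephb4 (0.34 ± 0.23 against 0.52 ± 0.19; difference 0.14, adjusted p = 0.79) and Epha2 (difference −0.21, adjusted p = 0.893) no difference passed the test. The sign of the fitted difference of Efna1 went against that of its group means. In the layer values above, the periportal-most value of Efnb1 was higher in each ginkgetin library than in the vehicle library of the same number, while its pericentral-most value was lower in replicates 1 and 3 and higher in replicate 2. For Efnb2 the pericentral-most value was lower with ginkgetin in all 3 pairs, and the periportal-most value was higher in replicate 1 only.

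The ephrin-B result rested on few libraries. Without ginkgetin replicate 3 the difference for Efnb1 was −0.51 (adjusted p = 0.0948), while within replicates 1 and 2 alone it was −0.64 (adjusted p = 0.0246), and with periportal landmarks alone −0.53 (adjusted p = 0.0344). For Efnb2 the call was lost without any 1 library except ginkgetin replicate 2 (adjusted p = 0.0819 to 0.684) and within replicates 1 and 2 alone (−0.47, adjusted p = 0.606), and in cells without a vascular marker UMI neither gene was called (Efnb1 −0.52 and Efnb2 −0.47, adjusted p = 0.996 for both). The landmarks moved with it too: the summed pericentral landmarks rose 1.58- to 2.21-fold from the periportal-most to the pericentral-most layer with vehicle and 2.83- to 3.69-fold with ginkgetin, while the periportal landmarks fell 3.49- to 4.18-fold and 4.17- to 4.32-fold. The pericentral sums were lower with ginkgetin in both layers, at 3881 to 6108 against 1108 to 1358 CPM in the periportal-most and 6388 to 10289 against 3374 to 4616 CPM in the pericentral-most layer. Fabp4, a fatty acid carrier and 1 of these landmarks, was itself lower with ginkgetin in sinusoidal-like cells (log2 fold change −3.16, adjusted p = 0.0227), and without it the differences were −0.72 for Efnb1 and −0.73 for Efnb2 (adjusted p = 0.00228 and 0.0420). Over the 595 genes that fell toward the central vein, the median interaction was −0.11 with 64.7% below 0, and over the 643 that rose it was 0.07 with 42.1% below 0, against −0.02 and 52.5% over all genes. Both gene lists were picked by the fit over these same libraries, so they are not independent of the interaction. The part of the landmarks in the result was not tested.

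**Figure D3:**
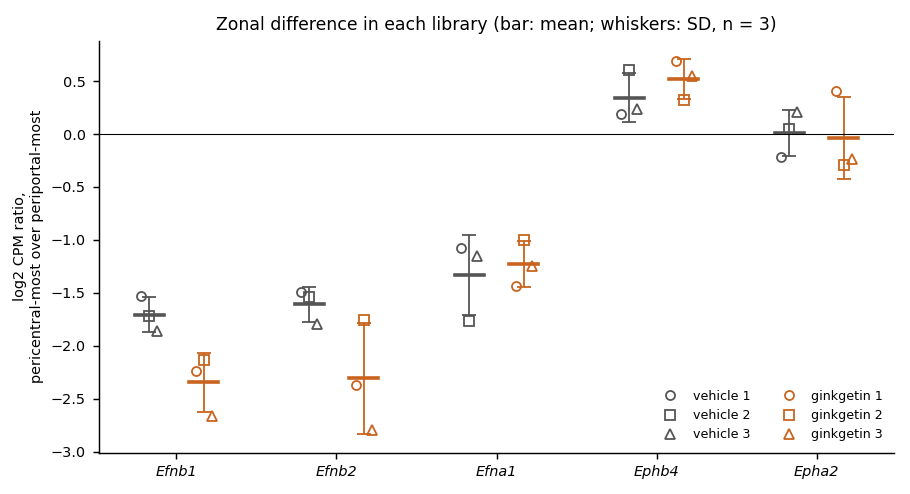
Zonal difference of 5 genes in each library, as the log2 CPM ratio of the pericentral-most over the periportal-most layer; bars are means and whiskers SD over 3 libraries, vehicle grey and ginkgetin orange. The 3 ginkgetin points of Efnb1 all lie below the 3 vehicle points, those of Efnb2 overlap, and all points of Ephb4 are above 0.

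To see whether the levels themselves changed, ginkgetin-treated mice were compared with vehicle-treated mice within each class (edgeR's quasi-likelihood test, called at an adjusted p under 0.05 and a fold over 2). In the endothelial classes none of the members tested was called: 0 of 6 in all endothelial-like cells, where 1.31% of genes were called, 0 of 6 in vascular-like cells (0.126%), 0 of 5 in sinusoidal-like cells (0.934%) and 0 of 5 in pericentral-like cells (0.724%). The groups came largely from different clusters. A cluster led by Fabp4, Lyve1 and Inhbb held 1572 of the 2194 vehicle and 26 of the 5771 ginkgetin cells, while clusters led by Ehd3 and Gpr182 (25 and 2637 cells), Wnt2 and Kit (13 and 1603) and Bmp6 (5 and 928) were mainly of ginkgetin cells, and the 2 clusters with Vwf among their leading genes held both (202 and 406, 377 and 171). The second of these Vwf clusters was nearly all of replicate 3, with 374 and 170 cells, as was the Bmp6 cluster, with 5 and 928. Of the 406 endothelial-like cells of vehicle replicate 3, 374 were in that Vwf cluster, while only 72 were vascular-like. The part of the clusters and of the replicate sets in the values below was not tested. A p that misses the threshold does not show that the levels were equal, and the standard errors of these log2 folds ran up to 0.64 (Epha4 in all endothelial-like cells).

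In vascular-like cells, Efnb1 averaged 723 ± 277 CPM with vehicle and 1269.8 ± 497 CPM with ginkgetin (SD, n = 3 each), with overlapping groups (log2 fold change 0.79, SE 0.35, adjusted p = 0.798). The ratio was alike within the 2 library sets, at log2 0.80 in replicates 1 and 2 and 0.82 in replicate 3. With the replicate number as a block, the adjusted p was 0.0119 at a fold under 2 (0.78). Per cell, 43.7 ± 8.59% of vascular-like cells with vehicle and 70.5 ± 10.5% with ginkgetin had an Efnb1 UMI after thinning, a difference of 26.8 points (exact permutation test, two-sided, p = 0.1, the smallest that 3 against 3 libraries allow; before thinning 79.3% and 92.8%). Epha4 in the same cells stood at 11.5, 5.17 and 16.8 CPM with vehicle and 27.9, 21.3 and 53.0 CPM with ginkgetin. These groups did not overlap, as was so for 10.8% of the genes tested there, and the fold was not called (log2 1.44, SE 0.45, adjusted p = 0.510; with the block 1.55, adjusted p = 0.0821; within sets 1.56 and 1.66). The other ligands and Ephb4 had log2 folds between −0.47 and −0.05 and Epha2 0.20. None of these 4 genes kept 1 direction within the sets (Efna1 −0.98 and 0.13, Efnb2 0.31 and −0.57, Ephb4 −0.18 and 0.11, Epha2 −0.41 and 1.08). Stellate markers in vascular-like cells summed to 53.0 to 119 CPM with vehicle and 69.6 to 164 CPM with ginkgetin. Lists whose sums did not overlap were those of macrophages (217 to 274 against 64.2 to 148 CPM), mesothelial cells (46.5 to 56.5 against 0 to 22.4 CPM) and plasma cells (560.4 to 619.8 against 703 to 1345 CPM), and their part in the folds was not tested.

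In pericentral-like cells the ligands had lower means with ginkgetin. Efnb2, with the values given above, was lower in every ginkgetin library than in any vehicle library, as groups did not overlap for 16% of genes there. Its log2 fold change was −1.08 (SE 0.34, adjusted p = 0.271), and with the replicate block −1.11 (SE 0.31, adjusted p = 0.0449), which is a call, where 3.81% of genes were called. It was −0.44 within replicates 1 and 2 and −1.97 in replicate 3. When Thbd and Cdh13 were left out of the gate, it was −0.32 (adjusted p = 0.842), on lower levels of 31.5 ± 10.6 CPM (SD, n = 6). Efnb1 had a log2 fold of −0.86 (adjusted p = 0.401; within sets −0.42 and −1.19) and 0.01 with that gate, so its direction there depended on the gate. Efna1 was at −0.73 (adjusted p = 0.458; within sets −0.59 and −0.69) and −0.09 with that gate. Ephb4 was at 0.39 (adjusted p = 0.696; within sets 0.20 and 1.03), and the share of pericentral-like cells with an Ephb4 UMI was 19.9% with vehicle and 32.6% with ginkgetin (exact permutation test, p = 0.1; before thinning 61.4% and 65.8%). The 10 macrophage markers summed to 278 to 441 CPM with vehicle and 63.7 to 154 CPM with ginkgetin in these cells, the 4 mesothelial markers to 36.1 to 60.5 and 2.05 to 11 CPM, the 6 portal fibroblast markers to 18 to 35.8 and 2.20 to 13.6 CPM, and the 10 endothelial markers to 10870.2 to 14500 and 15816 to 21298 CPM, and their part in the folds was not tested.

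In sinusoidal-like cells, which make up most of the endothelium, the log2 folds were −0.52 for Efna1 (adjusted p = 0.459; within sets −0.34 and −0.36), 0.19 for Efnb1, −0.52 for Efnb2 (adjusted p = 0.467; within sets −0.10 and −0.70), 0.39 for Ephb4 (adjusted p = 0.411; within sets 0.48 and 0.70) and 0.18 for Epha2. All groups overlapped, here and in endothelial-like cells as a whole, where groups were apart for 17.8% and 18.7% of genes. With the replicate block, Efna1 had an adjusted p of 0.0363 at a fold under 2, and Ephb4 one of 0.0905. Over all endothelial-like cells the thinned shares differed by −2.62 points for Efna1 (exact permutation test, p = 0.5), 3.96 for Efnb1 (p = 0.7), −2.40 for Efnb2 (p = 0.5), 6.68 for Ephb4 (p = 0.2) and 0.421 for Epha2 (p = 0.6). Macrophage markers in endothelial-like cells summed to 207 to 373 CPM with vehicle and 63.2 to 160 CPM with ginkgetin, mesothelial markers to 28.1 to 52.0 and 3.99 to 5.06 CPM, portal fibroblast markers to 32.8 to 52.2 and 7.78 to 30.3 CPM, dendritic markers to 71.0 to 111 and 121 to 151 CPM and plasmacytoid dendritic markers to 0.306 to 1.80 and 2.37 to 12.1 CPM, and what they add to the family's values was not tested.

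**Figure D4:**
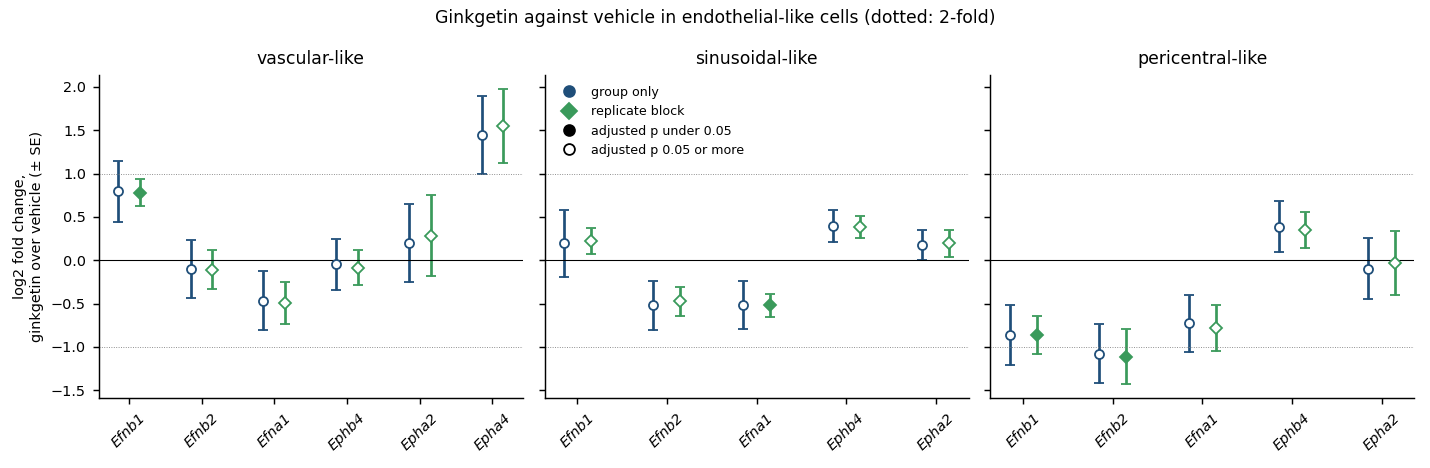
Log2 fold change of ginkgetin over vehicle with its SE in vascular-like, sinusoidal-like and pericentral-like cells; blue circles are the fit by group only and green diamonds the fit with the replicate block, filled where the adjusted p is under 0.05, and dotted lines mark 2-fold. No circle is filled, and the 4 filled diamonds are Efnb1 in vascular-like and pericentral-like cells, Efna1 in sinusoidal-like cells and Efnb2 in pericentral-like cells, of which only the last is past 2-fold.

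Outside the endothelium, 1 change was called. In macrophage-like cells Efnb1 stood at 5.71, 5.49 and 8.30 CPM with vehicle and 15.8, 16.6 and 29.7 CPM with ginkgetin, with no overlap, as was so for 42.4% of the genes tested in this class (means 6.50 ± 1.56 and 20.7 ± 7.83 CPM; SD, n = 3 each). It was the 1 member tested there and rose (log2 1.25, SE 0.29, adjusted p = 0.0206; log2 ratios within the sets 1.53 and 1.84), in a class where 13.8% of genes were called and 7.03% were called higher. The call was lost without ginkgetin replicate 3 (0.91, adjusted p = 0.160), vehicle replicate 1 (1.20, adjusted p = 0.0674) or vehicle replicate 2 (1.19, adjusted p = 0.0830). With the replicate block, under which 16.9% of genes were called and more members passed the filter, 3 members were called, namely Efnb1 (1.19, adjusted p = 0.00940), Efnb2 (2.99, adjusted p = 0.00956) and Ephb4 (3.41, adjusted p = 0.00365). Efnb2 and Ephb4 were not tested in the fit by group only. Their levels were low, with Efnb2 at 0.420, 0.686 and 0.221 CPM against 3.17, 10.5 and 2.44 CPM. Ephb4 was at 0.672, 0.515 and 0.332 CPM against 0, 7.52 and 10.7 CPM. These are 5, 4 and 4 against 1, 7 and 5 UMIs for Efnb2 and 8, 3 and 6 against 0, 5 and 22 UMIs for Ephb4, so no change is read from these calls. The 10 endothelial markers moved with these genes: they summed to 266 to 307 CPM with vehicle and 985 to 1978 CPM with ginkgetin in macrophage-like cells, with none at 0 in any library, and to 74.6 to 97.5 and 247 to 976 CPM in T cell-like cells, which had Efnb1 at 1.94 ± 1.23 and 4.88 ± 3.70 CPM. In B cell-like cells Efnb1 was at 2.49 ± 1.81 and 6.39 ± 0.878 CPM, with endothelial markers at 223 to 277 and 366 to 1271 CPM. In macrophage-like cells other lists were higher without overlap too, namely those of T cells (1.60 to 8.57 against 16.6 to 55.7 CPM), NK cells (2.05 to 5.46 against 12.7 to 79.8), dendritic cells (63.4 to 78.0 against 132 to 166) and plasma cells (123 to 247 against 308 to 865), and those of B and mesothelial cells. The lists of cholangiocytes (275 to 674 against 66.5 to 212) and portal fibroblasts (66.0 to 120.3 against 28.5 to 49.2 CPM) were lower in macrophage-like cells. The groups also came from different clusters of this class: 783 of the 895 ginkgetin cells but 23 of the 3009 vehicle cells were in a cluster led by Marco, C6 and Cd163 with a median of 2110 UMIs, and the other 4 clusters had medians of 8021 to 20495 UMIs. The part of endothelial and other RNA, of the clusters and of depth in the macrophage values was not tested.

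In dendritic-like cells Epha2 stood at 9.57, 19.7 and 16.0 CPM with vehicle and 1.07, 6.0 and 9.74 CPM with ginkgetin. The groups overlapped, and the fold was not called, as for all but 0.261% of genes there (log2 −1.30, SE 0.47, adjusted p = 0.181; within sets −2.05 and −0.72), but was with the replicate block (−1.44, adjusted p = 0.0374), where 4.19% of genes were. With the barcode set as the block in edgeR's test, the fold was not called (−1.30, adjusted p = 0.0854). The 6 plasmacytoid dendritic markers, of the class highest in Epha2, summed to 28.2 to 38.7 CPM and 27.9 to 51.9 CPM in dendritic-like cells. The macrophage markers (377 to 529.9 against 113 to 242 CPM) and the endothelial markers (170.0 to 184 against 356 to 1098 CPM) differed between the groups without overlap, and their part in the fold was not tested. In plasmacytoid dendritic-like cells themselves Epha2 had a log2 fold of 0.67 (adjusted p = 0.685), where 0.064% of genes were called. No member was called in cholangiocyte-like (0 of 5, with 0.887% of genes called), stellate-like (0 of 2, 0.469%) or hepatocyte-like cells (0 of 1, 0.204%), and none passed the filter in the other classes.

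The other 15 Eph and ephrin genes were sparse. Of these, 12 were in the tables, and none passed the filter in any endothelial class or in the layers. In cholangiocyte-like cells 5 were tested and none was called (median log2 fold −0.17 against 0.01 over all genes), and in stellate-like cells 4 were tested and none was called (0.20 against −0.02).

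Of 35 genes that carry the signal inside the cell, such as adaptors, kinases, exchange factors and phosphatases, 30 were tested in endothelial-like cells and 1 was called, where 1.31% of all genes were. This was Tiam1, an exchange factor that loads the GTPase Rac and is known to bind Eph receptors and ephrin-B ligands. In pericentral-like cells Tiam1 stood at 4.67, 0 and 6.05 CPM with vehicle and 94.5, 109.8 and 129.8 CPM with ginkgetin, and in sinusoidal-like cells at 6.67, 11.1 and 19.6 CPM and 69.5, 78.6 and 86.0 CPM, so that the groups were far apart in both. In vascular-like cells it was at or under 10.3 CPM in all 6 libraries. The log2 folds were 4.62 (SE 0.45, adjusted p = 0.00502) in pericentral-like, 2.51 (SE 0.29, adjusted p = 0.0150) in sinusoidal-like and 2.84 (SE 0.29, adjusted p = 0.0107) in all endothelial-like cells. The vehicle values in pericentral-like cells were at or under the level of 3 UMIs (4.67, 13.5 and 18.2 CPM in replicates 1 to 3). The size of the fold of 4.62 is therefore uncertain. Without ginkgetin replicate 1 or ginkgetin replicate 2 no gene was called in endothelial-like cells as a whole, Tiam1 included, and without vehicle replicate 1 none was in pericentral-like cells. The list as a whole had a median log2 fold of 0.03 in endothelial-like cells against −0.01 over all genes, and of 0.19 against −0.002309 in vascular-like cells, where 0 of 26 were called (0.126% of all genes).

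Along the layers, 28 pathway genes were tested, of which 6 were higher and 2 lower toward the central vein, where 7.25% and 6.71% of all genes were, with a list median of 0.06 against 0.01. Tiam1 rose with Ephb4 (log2 difference 1.58, SE 0.11, adjusted p = 5.78e-13), as did Vav3 (0.73), another exchange factor, Arhgef15 (0.55), the endothelial exchange factor known as ephexin-5, and the kinase Fyn (0.27). From the periportal-most to the pericentral-most layer, Tiam1 went from 3.95 to 9.66 CPM to 9.11 to 29.7 CPM with vehicle. With ginkgetin it went from 33.6 to 42.4 CPM to 94.4 to 133 CPM. In all vehicle libraries its pericentral-like value was below its sinusoidal-like value, and in all ginkgetin libraries above it. Rgs3 (−0.58), known to bind ephrin-B ligands, and Ptprb (−0.31), the endothelial phosphatase VE-PTP, fell with the ligands. None of the 28 pathway genes tested was called for an interaction of layer and group, where 1.57% of all genes were. In macrophage-like cells 7 of 30 pathway genes rose, among them Arhgef15 (4.0), Ptprb (3.92), Tiam1 (2.04), Anks1 (1.15), Ptprj (1.08) and Nck1 (1.06), where 7.03% of all genes did, with a list median of 0.24 against 0.03. Ptprb is 1 of the 10 endothelial markers whose sum rose in the same libraries, as given above.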

How the data were processed

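The deposited tables hold raw UMI counts per gene and barcode, made by the authors from reads of 10X Genomics Chromium libraries of LNPC. The submitters' processing notes name GRCm38 and mm10, and the aligner is not given in the sources used here. The labels' extract protocol describes a kit for bulk RNA. The stated range of 250 to 5000 UMIs per cell was applied to genes detected per cell (mitochondrial UMIs under 5%), which kept 27544 of 33168 barcodes, since on UMIs it would keep only 16821. No deposited barcode had under 501 genes. Only the 16150 genes with UMIs in both symbol sets were used (97.2% of UMIs), which left out 946 genes of replicates 1 and 2 and 2253 of replicate 3.

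Cells of all libraries were clustered without integration in scanpy 1.11.5 (2000 variable genes, 30 components, 15 neighbours, Leiden resolution 1, without family genes). Of 38 clusters, 30 were named from marker lists. A vascular-like cell had over 25% of its vascular and sinusoidal marker UMIs on vascular markers, and a pericentral-like cell over 10% of its pericentral and sinusoidal ones on pericentral markers. These limits and those for naming clusters were chosen with the data in view, and 599 cells lay near the first limit (15 to 40%) and 1175 near the second (7 to 15%). No doublets were removed. Scrublet called 0.03% to 0.192% per library, far under the 6% it was set to expect, so these calls do not show that doublets were few. At most 85 barcodes were shared by any 2 libraries. The members and lists were chosen with earlier results of these data known, and gates and alternatives added after seeing the data are named as such in the closing section.

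Counts were summed per library and class (at least 10 cells) and tested in edgeR 4.0.16 (R 4.3.3) with TMM, filterByExpr and the quasi-likelihood test by group, with Benjamini-Hochberg adjustment over all genes. Layers were tested with the library as covariate and the 18 landmarks left out before adjustment, and an interaction term compared the groups. Alternatives used DESeq2 1.42.0, limma 3.58.1, RLE factors, other filters, gates and layers, 1 library left out, and the replicate number as a block. In the 13 classes with all 6 libraries, same-numbered libraries deviated together from their group means (every correlation from 0.125 to 0.758), so the numbers were taken to pair them. Libraries numbered 1 and 2 also correlated across numbers (0.0806 to 0.388) and replicate 3 only with replicate 3, so this follows the barcode sets and does not tell replicates 1 and 2 apart. P-values measure the spread between libraries. The tests were checked on simulated data. Named were the members, list genes that were called (at most 6 per comparison, by p), the 3 genes nearest to each member over classes, and the 3 largest zonal differences each way among genes of at least 50 CPM.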

Additional observations from a re-analysis of the deposited data

Results flagged for a closer look

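The zonal log2 difference of Efnb1 differed by −0.717 between ginkgetin and vehicle, being further below 0 with ginkgetin (edgeR interaction of layer and group, adjusted p = 0.000988), and it drew attention because the same contrast differed between the groups. The larger difference in ginkgetin-treated mice was seen in each pair of same-numbered libraries. With the replicate block it was −0.74 (adjusted p = 2.62e-04).

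The zonal log2 difference of Efnb2 differed by −0.684 in the same direction (adjusted p = 0.0478), for the same reason. With the replicate block it was −0.83 (adjusted p = 0.00462). The pericentral landmarks, which define the layers, were lower with ginkgetin and rose by a larger fold between layers, and their part in both results was not tested.

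Between sub-classes, the log2 ratio of pericentral-like over sinusoidal-like cells for Efnb1 was above 0 in all 3 vehicle libraries and below 0 in all 3 ginkgetin libraries (0.15 ± 0.12 and −0.96 ± 0.31; SD, n = 3 each), a difference of −1.11 that was not tested. Such a change of side, in either direction, was seen for 3.73% of genes. With Thbd and Cdh13 left out of the gate the ratio was below 0 in all 6 libraries. The log2 ratio of vascular-like over sinusoidal-like cells for Ephb4 was likewise above 0 with vehicle and below 0 with ginkgetin (0.22 ± 0.099 and −0.43 ± 0.20), a difference of −0.653 that was not tested, with such a change of side for 3.31% of genes.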

How the results depend on the processing

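The zonal calls of Efnb1, Efnb2 and Efna1 and their directions held under all alternatives run, and that of Ephb4 under all but the cells with no vascular marker UMI. That alternative, the other gates, the landmarks without Fabp4, the layers in replicates 1 and 2 alone, the interaction with the replicate block, the barcode-set block outside the endothelial classes and the shares with 1 library left out were chosen after seeing the data. Of values for single members, 382 kept direction and side of the threshold, 3 passed it, 7 lost it and 19 reversed over alternatives other than leaving out 1 library, and with 1 library left out 216 kept both, 9 lost the threshold and 21 reversed. The cause was not tested for any of them. What limits these values is 3 libraries per group, a depth that differs between replicates, and few pericentral-like cells (21 in vehicle replicate 3).

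Members called numbered 1 in place of 0 in dendritic-like cells with the replicate block and in pericentral-like cells with the replicate block or a barcode-set block, and 3 in place of 1 in macrophage-like cells with either block (1 to 2 with 1 library left out, where the member called was not always Efnb1). The replicate block changed no other call of a member. For the interaction of layer and group, 1 member in place of 2 was called with periportal landmarks alone, 2 layers, 5 layers or replicates 1 and 2 alone, 0 with cells with no vascular marker UMI, and 0 to 2 with 1 library left out.

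The log2 fold in endothelial-like cells reversed for Efnb1 with limma-voom (−0.003251) and no filter on cells (−0.002867) and for Epha2 with 250 to 5000 UMIs per cell (−0.0536). In pericentral-like cells it did so for Efnb1 with the gate without Thbd and Cdh13 (0.0130) and for Epha2 with stricter gates (0.0270). In vascular-like cells it did so for Efnb2 in replicates 1 and 2 alone (0.34) and with the UMI filter (0.43), for Ephb4 with no filter on cells (0.001548), stricter gates (0.0692) and looser gates (0.0588), and for Epha2 in replicates 1 and 2 alone (−0.52). The zonal difference of Epha2 was 0.0484 with periportal landmarks. The interaction of Efna1 was 0.10 with periportal landmarks, 0.0798 with 5 layers, 0.0854 in replicates 1 and 2, 0.0316 without Fabp4 and 0.29 in cells with no vascular marker UMI, that of Ephb4 was −0.20 with pericentral landmarks, and that of Epha2 was 0.005488 in replicates 1 and 2.

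With 1 library left out, the log2 fold ranged over 0 for Efna1 (−0.20 to 0.007377) and Efnb1 (−0.0189 to 0.54) in cholangiocyte-like cells, Efnb1 (−0.19 to 0.49) and Epha4 (−0.72 to 0.44) in endothelial-like cells, Epha2 (−0.31 to 0.11) in pericentral-like cells, Efnb1 in sinusoidal-like (−0.0794 to 0.65) and stellate-like cells (−0.24 to 0.33), and Efnb2 (−0.30 to 0.37), Ephb4 (−0.28 to 0.10) and Epha2 (−0.25 to 0.51) in vascular-like cells. The interaction of Efna1 ran from −0.14 to 0.0383. Differences in the share of endothelial-like cells with a UMI ran from −5.06 to 0.728 points for Efna1, −1.04 to 8.78 for Efnb1, −4.45 to 1.54 for Efnb2 and −0.0786 to 0.731 for Epha2. Calls over all genes were 133 in endothelial-like cells (0 to 48 with 1 library left out, 90 to 491 otherwise), 90 in sinusoidal-like (2 to 46, 73 to 438), 47 in pericentral-like (0 to 52, 9 to 302), 9 in vascular-like (0 to 16, 5 to 127), 1370 in macrophage-like (586 to 1708, 1780 to 1820) and 20 in dendritic-like cells (3 to 11, 343 to 390), 1238 along the layers (858 to 1199, 243 to 1397) and 143 for the interaction (49 to 147, 4 to 283).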

Other observations

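Cells in unnamed clusters held little of the family. The highest means were Ephb4 at 41.0 ± 43.1 CPM (SD, n = 6) in a cluster of 223 cells led by cell-cycle genes and Efnb1 at 40 ± 19.2 CPM (SD, n = 5) in a cluster of 105 cells led by Gsn, Igfbp6 and Dpt, genes known from fibroblasts. By group, Ephb4 in the former was at 10.1, 12.9 and 23.7 CPM with vehicle and 24, 51.5 and 124 CPM with ginkgetin, and Efnb1 in the latter at 25.6, 32.8 and 25.1 CPM with vehicle and 45.3 and 71.0 CPM in ginkgetin replicates 1 and 3 (replicate 2 had only 8 cells). No test was run. Both clusters held cells of all 6 libraries.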
